A study of Rattus norvegicus with 2 samples.

Results

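The genes of heat shock proteins and chaperones were examined in the NTS (nucleus tractus solitarius), the first brainstem relay of baroreceptor and other visceral signals, in 1 pool from female and 1 pool from male Wistar Kyoto (WKY) rats. Members were the genes whose array name begins with Hspa, Hspb, Hspd, Hspe, Hsph, Hsp90, Dnaja, Dnajb, Dnajc, Pdia or Cct, with a digit after Pdia and Cct. The rule used names only and no measured value. It took 89 gene names, on 109 probes and 190 spots, out of 18822 gene symbols on the array. Of these, 84 were measured, which means that at least 1 probe was well above background on both arrays, against 15560 of all genes.

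The female pool held RNA of 5 rats and the male pool RNA of 5 rats, all 9 weeks old, with 100 ng from each rat. No treatment is named for either pool. All rats ate and drank freely and were decapitated after inhaling ether. Each pool was labelled with Cy3 and hybridised to 1 single-colour Agilent array of 60-base probes, and both arrays lay on 1 slide. With 1 array per sex there was no replicate check, no test was made, and no value below carries a p-value. A pool of 5 rats is 1 sample, so the spread between rats is not known.

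Chaperones bind unfolded or partly folded proteins and keep them from aggregating. HSP70 proteins do so in cycles of ATP binding and hydrolysis, in which J-proteins (the Dnaj genes) deliver clients and speed hydrolysis, and HSP110 proteins exchange the nucleotide. HSP90 proteins finish the folding of kinases and steroid receptors, the chaperonins HSP60 and CCT enclose their clients in a barrel, small heat shock proteins hold unfolded clients without ATP, and protein disulfide isomerases (the Pdia genes) form and rearrange disulfide bonds in the endoplasmic reticulum (ER). Neurons carry high constitutive levels of several of these proteins, while stress-inducible members are raised by the heat shock factor HSF1 or, in the ER, by the unfolded protein response.

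The probe sequences of the 8 members that were 1.2-fold or more apart are given first. Each value below rests on the brightness of 1 or more such 60-base sequences. The positions are those of the rn4 build in the array files, and no exon annotation of that build was used here.
Hspb3, chr2:45078729-45078788, minus strand: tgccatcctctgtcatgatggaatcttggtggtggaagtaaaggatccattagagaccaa
Dnajc24, chr3:91439003-91439062, minus strand: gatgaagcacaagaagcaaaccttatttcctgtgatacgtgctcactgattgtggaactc
Hspa1l, unmapped in the array files: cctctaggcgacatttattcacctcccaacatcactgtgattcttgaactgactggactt
Dnajc28, chr11:31584550-31584609, minus strand: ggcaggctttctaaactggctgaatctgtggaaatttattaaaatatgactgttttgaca
Hsph1, chr12:5809732-5809791, plus strand: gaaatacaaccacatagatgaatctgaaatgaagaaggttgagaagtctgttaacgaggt
Dnajc22, chr7:137880570-137880629, plus strand: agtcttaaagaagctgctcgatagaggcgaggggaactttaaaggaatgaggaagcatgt
Hspb7, chr5:160314136-160314195, plus strand: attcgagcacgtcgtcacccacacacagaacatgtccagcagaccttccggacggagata
Hspa1b, counted probe, chr20:3957864-3957923, plus strand: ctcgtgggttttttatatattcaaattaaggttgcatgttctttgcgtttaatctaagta
Hspa1b, second probe, chr20:3959493-3959552, plus strand: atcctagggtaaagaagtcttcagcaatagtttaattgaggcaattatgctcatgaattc
The longest run of bases shared by probes of different members was 13, between a Dnajc19 and a Dnajc5b probe. The 2 Hspa1b probes are shown together because the second did not stand well above background, with a processed signal of 2.11 on the female and 2.83 on the male array, while the first was measured at 1009 and 844.7.

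Levels are given as log2 of the processed signal relative to the same array's 75th percentile, so 0 is the 75th percentile, and differences are female minus male on this scale. That percentile was a signal of 3380 on the female and 3441 on the male array. Spots well above background made up 87.9% of the rat spots for the female pool and 85.5% for the male pool, and no spot was saturated. The genes that mark the tissue were bright on both arrays: the noradrenergic enzymes Th, at 3.83 on the female and 3.80 on the male array, and Dbh, at 3.28 and 3.34, and the hindbrain gene Hoxb5, at 4.38 and 4.41.

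Lists of red cell, meningeal and choroid plexus genes were lower on the female array in every measured gene. In all sums of listed genes, here and below, each gene enters with its brightest probe and not with its median over probes. The 4 measured red cell genes summed to 83.97 times the 75th percentile on the female and 113.5 times on the male array. By gene level, 0 of 4 were higher on the female array. The 5 meningeal genes summed to 7.44 on the female and 12.6 on the male array, with 0 of 5 higher, and the 5 choroid plexus genes summed to 13.9 on the female and 16.1 on the male array, with 0 of 5 higher. All 4 astrocyte genes were also lower on the female array, with a median difference of -0.20, while all 3 endothelial genes were higher, with a median of 0.21. The microglial genes were lower in 3 of 4, with a median of -0.19, and the oligodendrocyte genes were higher in 3 of 5, with a median of 0.27. Their part in the differences described below was not tested, and in pooled tissue fewer cells of a type and less RNA per cell cannot be told apart.

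Chaperone genes differed little between the 2 pools. Of the 84 measured members, 50 were higher on the female and 34 on the male array, against 45.7% of all genes higher on the female array. The median difference was 0.035 for the members and -0.014 for all genes. No member reached a 2-fold difference in either direction, where 0.533% of all genes did (0.109% with the female and 0.424% with the male array higher). A 1.5-fold difference was reached by 2 members, Hspb3 and Dnajc24, against 2.47% of all genes, and a 1.2-fold difference by 8 members (9.52%), against 13.5% of all genes. The median fold difference, taken either way, was 1.07 for the members and 1.07 for all genes. These shares and medians are not matched for brightness. Genes less than 4-fold below the 75th percentile, or above it, made up 67.86% of the members and 47.35% of all genes. Differences were larger among dimmer genes.

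The direction of the small differences depends on the scale. Setting the arrays equal on their spike-in controls instead of the 75th percentile moved every gene by 0.67 towards the female array, so every direction below is relative to that percentile. With the medians of the arrays set equal, there were 55 members higher on the female and 29 higher on the male array, beside 56.2% of all genes higher on the female array.

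The technical error of a difference was taken from probes that are spotted several times. Its SD over spots was 0.069 for genes less than 4-fold below the 75th percentile, 0.089 for genes 4- to 16-fold below it, 0.15 for genes 16- to 64-fold below it, and 0.28 for dimmer genes. Differences over 2 spot SDs in either direction made up 19.8% of all genes. By that measure 16 members were higher on the female array by over 2 spot SDs (19.0%), against 7.41% of all genes, and 8 were higher on the male array (9.52%), against 12.4% of all genes. This spread covers spots of the same labelled RNA and leaves out rats, dissection and labelling. In 4 bands of array rows, which hold 20.6% of the rat spots, dim spots were more often brighter on the male array, and 17 members have a single-spot probe there, among them Dnajc28, Hspa13, Dnajb6 and Pdia5. Without those bands 42 of 69 members (60.9%) were higher on the female array, against 47.2% of all genes. Because the bands were picked for spots brighter on the male array, this count is no independent check of direction. Within each class of brightness the median size of the difference was larger for members than for all genes, at 0.087 against 0.068 in the brightest class of 57 members, and 0.12 against 0.099 in the class below it, of 19 members.

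**Figure D1:**
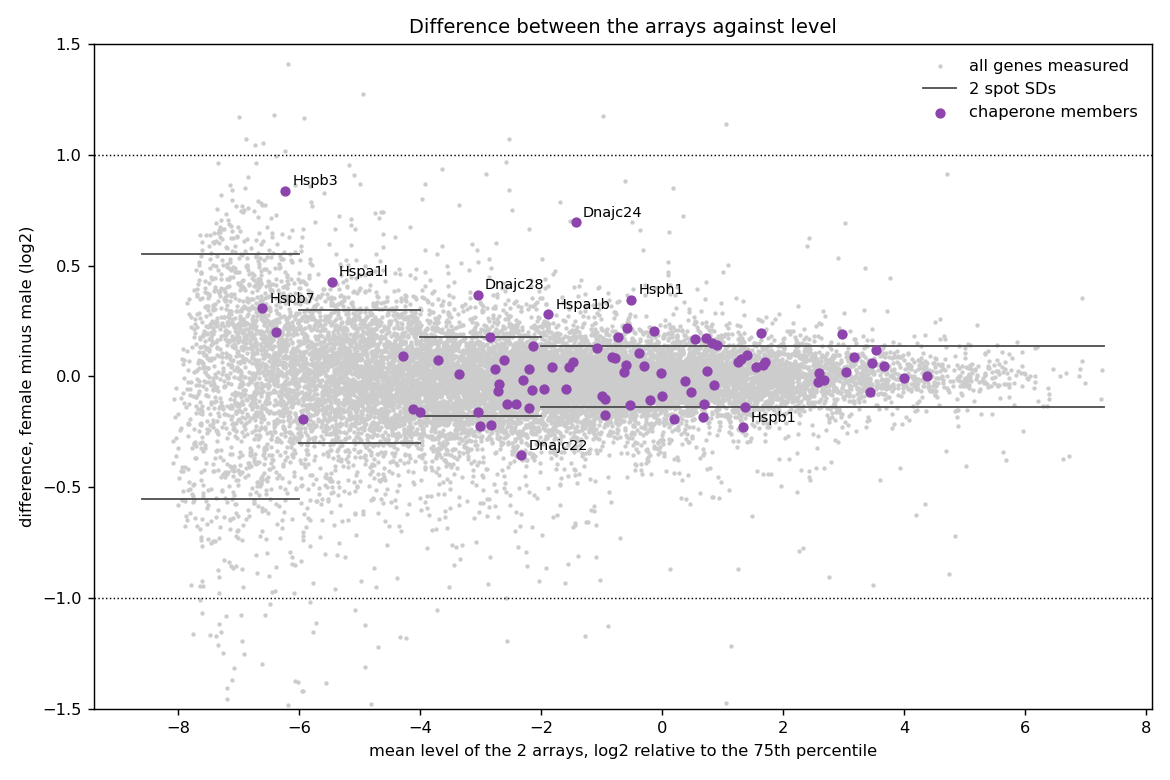
Female minus male difference (log2) against the mean level of the 2 arrays (log2 relative to the 75th percentile) for 84 chaperone members (purple) and all genes measured (grey, 28 genes lie outside the plotted range). Solid lines mark 2 spot SDs in each class of brightness and dotted lines 2-fold. Members scatter within 2-fold, from -0.36 for Dnajc22 to 0.84 for Hspb3, and Dnajc24 stands highest among the members above a mean level of -4.

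The HSP70 proteins are the central ATP-driven chaperones. Of 10 measured members, 8 were higher on the female array, with a median difference of 0.048. Hspa8, the constitutive HSC70 that also uncoats clathrin vesicles, had 4 counted probes. They read 6.74, 5.49, 3.24 and 2.36 on the female array and 6.69, 5.43, 3.33 and 2.41 on the male array. The brighter pair was higher on the female array, by 0.055 and 0.064, and the dimmer pair lower, with differences of -0.089 and -0.049, so the median over the probes was 0.0030, a value with no settled direction: it was -0.049 without the 4 bands of rows. Hspa5 (BiP), the HSP70 of the ER, had a processed signal of 38200 on the female and 37296 on the male array, a difference of 0.060. Hspa9 (mortalin), which pulls proteins into mitochondria, differed by 0.11, from levels of -0.33 on the female and -0.44 on the male array. Hspa13, an HSP70-like ATPase of microsomes, had signals of 11222 on the female and 9975 on the male array, a difference of 0.20 or 2.83 spot SDs.

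Hspa1l and Hspa1b were the HSP70 members farthest apart. Hspa1b, the stress-inducible HSP70, had a mean signal of 1009 on the female and 844.7 on the male array over the 10 spots of its counted probe. All 10 spots were higher on the female array, by 0.28 ± 0.098 (SD, n = 10 spots), although the lowest female spot, at 854.4, lay below the highest male spot, at 951.8. Hspa1l, its neighbour in the major histocompatibility complex and best known as a constitutive HSP70 of testis, had signals of 79.7 to 105.7 over 8 spots on the female array and of 57.8 to 76.4 on the male array. The arrays did not overlap, and the difference was 0.43 ± 0.16 (SD, n = 8 spots). Spots of 1 probe measure the same labelled RNA and are no replicates of sex.

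Hspa12a and Hspa12b are distant relatives of the family, each with 2 counted probes. The 2 probes of Hspa12a read -5.11 and 0.75 on the female array, a 58.2-fold gap within 1 gene, and differed between the arrays by -0.023 and 0.093. The 2 probes of Hspa12b differed by 0.092 and -0.39, the widest disagreement among the members with several probes. Hspa2, with its role in the germ line, differed by -0.056, and Hspa14, a ribosome-bound HSP70, by 0.022, both within the spread of spots.

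All 3 measured HSP110 genes, the nucleotide exchange factors of HSP70, were higher on the female array, with a median of 0.14. Hsph1 (HSP105), the heat-inducible one, had a signal of 2670 on the female and 2139 on the male array. Its difference of 0.35 was 5.00 spot SDs, in 1 spot of 1 probe. Hspa4l was higher by 0.14, from levels of 0.98 on the female and 0.84 on the male array, and Hspa4, at 3.04 and 3.02, by 0.018. Hspbp1, a further exchange factor of HSP70, read -0.049 on the female and 0.038 on the male array, a difference of -0.087 or 1.26 spot SDs. Hspbap1, which was named for binding Hspb1, differed by 0.053.

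The HSP90 genes were all above the 75th percentile on both arrays. The 3 probes of Hsp90aa1, the inducible cytosolic form, read 4.43, 3.07 and 3.16 on the female array and 4.34, 2.97 and 3.17 on the male array, with differences of 0.087, 0.095 and -0.0048. The 2 probes of Hsp90ab1, the constitutive form, read 4.19 and 2.61 on the female and 4.18 and 2.77 on the male array, with differences of 0.014 and -0.16. Probes of 1 gene thus fell on both sides of 0 in both cytosolic genes. Hsp90b1 (GRP94), the HSP90 of the ER, had signals of 11263 on the female and 10957 on the male array and differed by 0.066.

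Hspd1 (HSP60) and Hspe1 (HSP10), the barrel and lid of the mitochondrial chaperonin, are transcribed from a shared promoter in opposite directions. Both were higher on the female array. Hspd1 had signals of 40628 on the female and 38073 on the male array, a difference of 0.12, and both Hspe1 probes were higher, by 0.038 and 0.056. The 2 genes lay within 2 spot SDs.

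The cytosolic chaperonin CCT, which folds actin and tubulin, split evenly: 4 of 8 measured subunits were higher on the female array, with a median of 0.0056. Cct3 had signals of 53940 on the female and 55128 on the male array, a difference of -0.0057. Both probes of Cct6a were higher on the female array, by 0.11 and 0.22, while Cct5 was lower, at 8327 on the female and 9341 on the male array, a difference of -0.14. Subunits of the same ring therefore stood on either side of 0 by over 2 spot SDs. Cct6b, the testis form of the Cct6 subunit in mouse and human, was dim, at -6.03 on the female and -5.84 on the male array, and its difference of -0.19 was within 2 spot SDs. The remaining subunits, Cct2, Cct4, Cct7 and Cct8, ranged from -0.068 to 0.083.

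**Figure D2:**
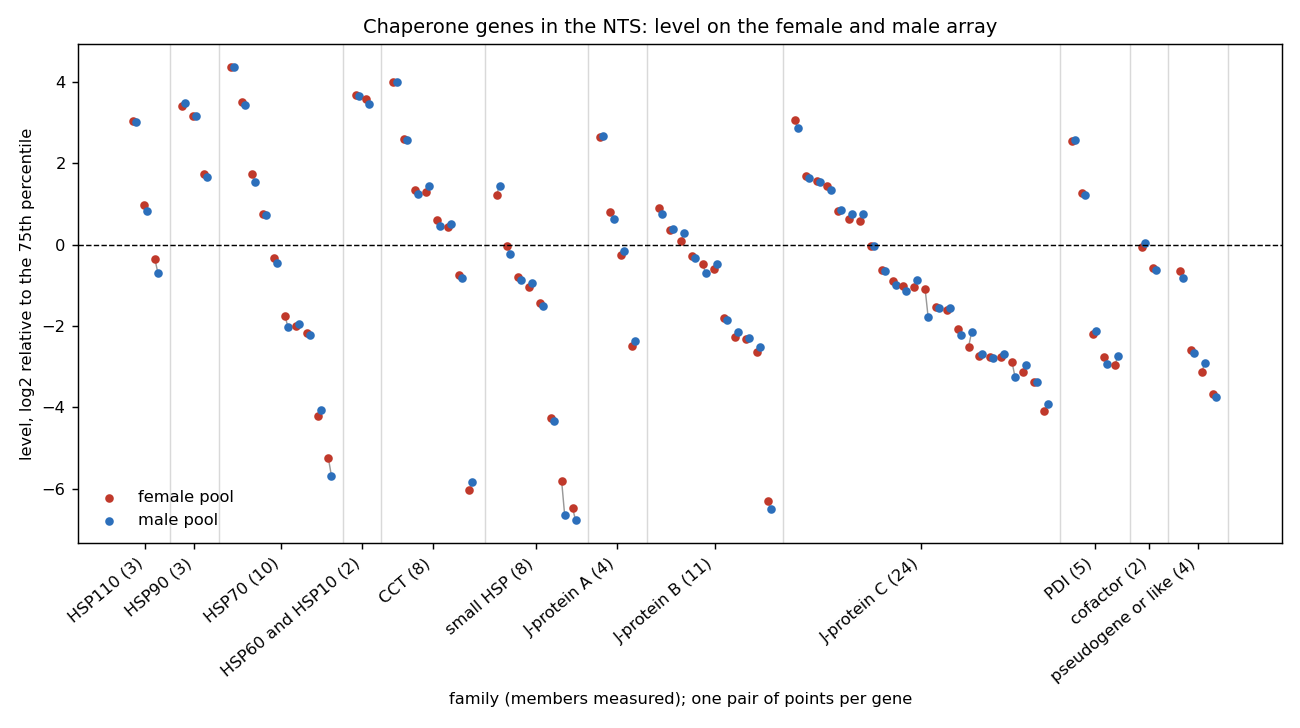
Level of each measured member on the female array (red, left) and the male array (blue, right), in log2 relative to the 75th percentile (dashed line), by family with the number measured in brackets. 1 pair of points is 1 gene, the levels of different genes come from different probes and are not abundances, and the 2 points of a pair lie close together except in Hspb3 and Dnajc24.

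The small heat shock proteins include Hspb3, which had the largest difference on the processed signals but not under normexp background correction, where it was 0.29 and Dnajc24 was 0.75. Of 8 measured genes, 6 were higher on the female array, with a median of 0.090. Hspb3, known from muscle and motor nerve, had a signal of 60.2 on the female and 34.3 on the male array, a 1.79-fold difference of 0.84 or 3.03 spot SDs. Both values were dim, 56.2-fold below the percentile on the female and 100.4-fold below it on the male array, and they come from 1 spot. Hspb7, the cardiovascular member, had signals of 38.3 and 31.5 on the female and male arrays, and its difference of 0.31 was 1.11 spot SDs and 0.033 under normexp. The 4 measured striated muscle genes summed to 0.436 times the percentile on the female and 0.368 times on the male array, with 2 of 4 higher on the female array. Their part in the Hspb3 and Hspb7 values was not tested.

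The brighter small heat shock proteins pointed both ways. Hspb1 (HSP27), which is induced by stress, was lower on the female array, at 7904 against 9433 on the male array, a difference of -0.23 or 3.32 spot SDs. Hspb6 (HSP20), which is known from smooth muscle, was higher, at 3302 on the female and 2920 on the male array, a difference of 0.20. The smooth muscle and pericyte genes summed to 0.633 times the percentile on the female and 0.690 on the male array. That sum includes Cnn1, which was not well above background, and 2 of the 4 measured genes were higher on the female array. Their part in the Hspb6 value was not tested. Hspb8, which hands clients to autophagy, differed by -0.089, Hspb2 by 0.089, Hspb9 by 0.092, and Hspb11, whose accession the current RefSeq table names Ift25, by 0.065. These 4 lay within 2 spot SDs.

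The J-proteins were the largest family and centred near 0. Class A had 1 of 4 genes higher on the female array and a median of -0.061, class B 5 of 11 and -0.018, and class C 13 of 24 and 0.012. Dnaja1, the main cytosolic partner of HSC70, had signals of 21313 on the female and 21952 on the male array. Dnaja2 was higher by 0.17, at 5946 on the female and 5368 on the male array. Dnaja4 differed by -0.11, and both probes of the mitochondrial Dnaja3 were lower, with differences of -0.19 and -0.061. The class B median turned positive under loess, median, quantile and spike-in scaling and, at 0.043, without the 4 bands of rows. The class C median turned negative without those bands, at -0.014 with 10 of 20 genes higher, and the class A median turned positive under spike-in scaling.

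In class B, Dnajb1 (HSP40), the inducible partner of HSP70, was higher by 0.15, with signals of 6289 on the female and 5763 on the male array. Dnajb6, known for holding polyglutamine proteins in solution, was lower, with a difference of -0.19, with 3597 on the female and 4181 on the male array. Dnajb9 (ERdj4), a J-protein of the ER that the unfolded protein response induces, was higher by 0.22, with 2422 on the female and 2118 on the male array. These 3 passed 2 spot SDs, and no other class B gene did. Dnajb13, a gene of the radial spokes of cilia and sperm tails, differed by -0.14 at levels of -2.27 on the female and -2.13 on the male array, beside motile cilia genes that summed to 3.89 on the female and 3.92 on the male array with 2 of 6 higher, whose part in its value was not tested. Dnajb8, a testis J-protein, was dim, at 43.3 on the female and 38.3 on the male array. Dnajb2, a neuron-rich J-protein, differed by -0.011 over the 10 spots of its repeated probe. The other class B genes, Dnajb3, Dnajb4, Dnajb5, Dnajb11 and Dnajb12, ranged from -0.13 to 0.048.

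Class C ranged from -0.36 to 0.69. Dnajc24 (DPH4), an enzyme partner in the diphthamide modification of elongation factor 2, had a signal of 1589 on the female and 999.8 on the male array, a 1.62-fold difference of 0.69. Only 31 of 7368 genes in its class of brightness (0.421%) were as far apart. It rests on 1 spot of 1 probe, and no second probe carried its name. Dnajc28 was higher by 0.37, at 461.8 on the female and 364.3 on the male array, also in 1 spot.

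Dnajc22, a membrane J-protein whose fly relative Wurst acts in endocytosis, was the member lowest on the female array relative to the male array. Its 10 spots gave 554.2 to 629.1 on the female and 691.8 to 843.4 on the male array, without overlap, and a difference of -0.36 ± 0.032 (SD, n = 10 spots). That SD was the smallest of the 9 members with repeated spots. Dnajc3 (P58IPK), an ER co-chaperone that also restrains the kinase PERK, was lower, with a difference of -0.17, with 1642 on the female and 1885 on the male array. Dnajc7 was lower, with a difference of -0.19, and Dnajc8, a splicing J-protein, was higher by 0.19. Dnajc12, a partner of the aromatic amino acid hydroxylases, among them the tyrosine hydroxylase of NTS catecholamine neurons, was level on the 2 arrays, at -0.019 on the female and -0.034 on the male array. The synaptic J-proteins Dnajc5 (cysteine string protein) and Dnajc6 (auxilin) differed by -0.055 and 0.044, and the mitochondrial Dnajc30 by -0.16, or 1.05 spot SDs. Dnajc2, Dnajc4, Dnajc9, Dnajc11, Dnajc14, Dnajc15, Dnajc16, Dnajc17, Dnajc18, Dnajc25 and Dnajc27 ranged from -0.16 to 0.051, with none past 2 spot SDs.

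**Figure D3:**
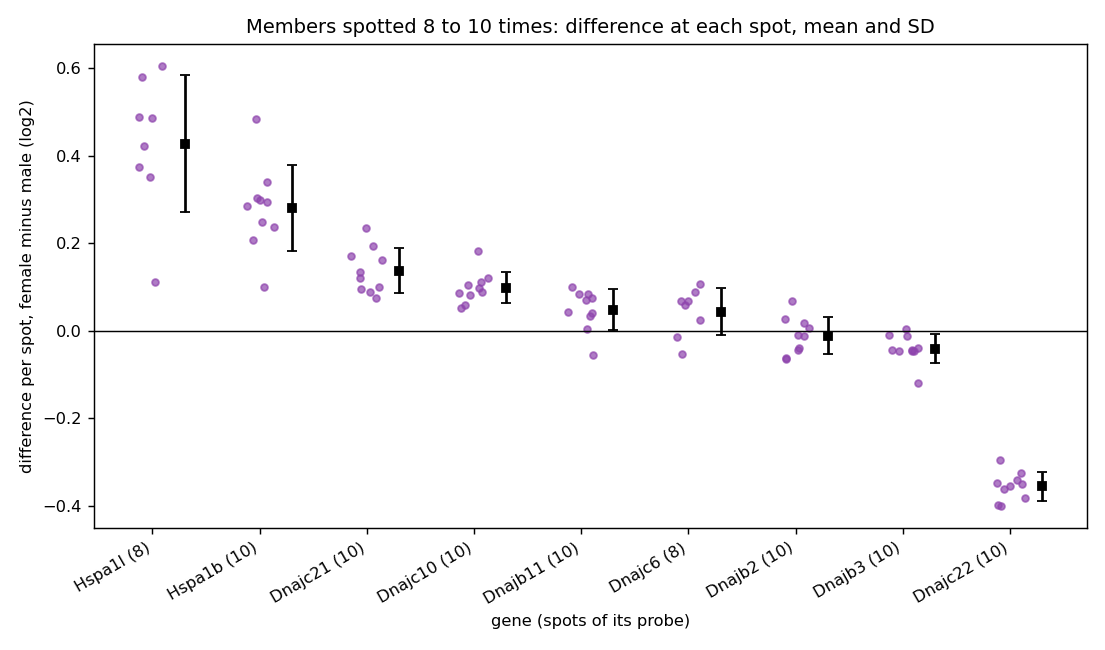
Female minus male difference (log2) at each spot (points), with the mean and SD over spots (black), for the 9 members whose probe was spotted 8 to 10 times, with the number of spots used in brackets. All spots lie above 0 for Hspa1l, Hspa1b, Dnajc21 and Dnajc10 and all below 0 for Dnajc22.

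The 9 repeated probes show the technical error directly. Besides the genes above, Dnajc21, a factor of ribosome assembly, was higher on the female array in 10 of 10 spots, by 0.14 ± 0.052 (SD, n = 10 spots), and Dnajc10, an ER reductase, in 10 of 10 spots, by 0.099 ± 0.036 (SD, n = 10 spots). Of 1298 probes with 8 to 10 spots, 21.6% were higher on the female array in every spot and 18% on the male array in every spot, and in 10.8% the spots of the arrays did not overlap. Among the 9 members, 4 were higher in every spot on the female array, 1 on the male array, and in 3, Hspa1l, Dnajc10 and Dnajc22, the spots did not overlap.

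The protein disulfide isomerases stood on both sides of 0, with 2 of 5 higher on the female array and a median of -0.024, which turned positive under median and spike-in scaling. Pdia3 (ERp57), the partner of calnexin and calreticulin, had 8178 on the female and 7968 on the male array, a difference of 0.063. Pdia6 had 19960 on the female and 20659 on the male array, a difference of -0.024. Pdia4 (ERp72) was lower, at 438.6 on the female and 519.2 on the male array, a difference of -0.22, while Pdia5 was higher by 0.18. Both passed 2 spot SDs, at levels 4- to 16-fold below the percentile.

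The 2 stress programmes that run through these families can be read side by side. Of 8 listed heat shock inducible genes, a list chosen with earlier results of these data known, 7 were measured. Higher on the female array were 6 (85.7%), against 45.7% of all genes. The median difference was 0.15, against -0.014 for all genes. Both values describe the listed genes only and depend on which genes were listed. The 6 were Hspa1l, Hsph1, Hspa1b, Dnajb1, Hsp90aa1 and Hspe1, and the exception was Hspb1. Of the 6, Hsp90aa1 and Hspe1 lay within 2 spot SDs, at 1.26 and 0.68. Hspa1a had no probe under that name. Hspa1l is known as constitutive rather than heat inducible, and without it 5 of 6 were higher, with a median of 0.12. Without the background filter, which brings in the second Hspa1b probe, 5 of 7 were higher, with a median of 0.087, and among brighter probes 5 of 6, with a median of 0.12. Across the scalings the median was 0.15 to 0.19, and 0.82 with spike-in scaling. Of 7 listed ER stress genes, 4 were higher on the female array, Dnajb9, Hsp90b1, Hspa5 and Dnajb11, and 3 lower, Pdia6, Dnajc3 and Pdia4, with a median of 0.048. By compartment, 9 of 15 ER genes, 27 of 44 cytosolic genes and 5 of 9 mitochondrial genes were higher on the female array.

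Promoter sequence was then set beside these programmes. HSF1 binds inverted repeats of the unit NGAAN, and the search took 3 units in a row, spelled GAANNTTCNNGAA on one strand and TTCNNGAANNTTC on the other, in the 250 bases before each start in RefSeq's GRCr8 table. This search was chosen after the values were seen. The table matched 67 of the 89 members, and the element was present in 4 of them (5.97%), against 222 of 33469 promoters (0.663%). The stretches with the element in capitals are shown because these 4 genes include the largest HSP110 difference and both subunits of the mitochondrial chaperonin.
Hsph1, chr12:10427317-10427359, plus strand: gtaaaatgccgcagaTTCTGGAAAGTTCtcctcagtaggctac
Hspa8, far element, chr8:50080286-50080328, plus strand: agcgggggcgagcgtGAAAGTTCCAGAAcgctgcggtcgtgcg
Hspa8, near element, chr8:50080444-50080486, plus strand: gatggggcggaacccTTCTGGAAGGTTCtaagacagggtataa
Hspd1, chr9:64084247-64084287, minus strand: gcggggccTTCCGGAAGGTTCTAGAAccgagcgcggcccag
Hspe1, chr9:64084247-64084294, plus strand: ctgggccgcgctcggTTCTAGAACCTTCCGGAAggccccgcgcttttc
The Hspd1 and Hspe1 stretches are the same element read from opposite strands, where 4 units overlap into 18 bases. Hsph1, Hspd1 and Hspe1 were higher on the female array, by 0.35, 0.12 and 0.047, while the 4 probes of Hspa8 stood on both sides of 0 with a median of 0.0030. Among all measured genes with the element, 34 of 51 (66.7%) were higher on the female array, against 45.7% of all genes. Their median was 0.030, against -0.016 for measured genes without the element. A search for only 2 units in a row did not show this. With 2 units, 10 of 17 measured members were higher on the female array, with a median of 0.0085, against 0.022 for members without them. Of all measured genes with 2 units, 47.2% were higher on the female array, with a median of -0.010. The promoters of Hspa1b, Hsp90aa1, Dnajc24 and Dnajc22 were not among those matched. Of the heat shock inducible list, Hsph1 and Hspe1 carried the element of 3 units. Dnajb1, Hspb1 and Hspa1l were matched without it, with differences of 0.15, -0.23 and 0.43.

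The ER stress element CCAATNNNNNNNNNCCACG, read on both strands, was present in 3 of 67 member promoters (4.48%) and in 22 of 33469 promoters (0.0657%). It is shown with the element in capitals because the 3 genes did not share a direction.
Hspa5, chr3:38452958-38453006, plus strand: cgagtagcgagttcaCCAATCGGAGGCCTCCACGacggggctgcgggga
Hsp90b1, far element, chr7:23012436-23012484, minus strand: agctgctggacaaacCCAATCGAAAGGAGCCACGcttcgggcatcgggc
Hsp90b1, near element, chr7:23012332-23012380, minus strand: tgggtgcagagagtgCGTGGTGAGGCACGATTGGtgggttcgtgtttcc
Dnajc3, chr15:102432519-102432567, plus strand: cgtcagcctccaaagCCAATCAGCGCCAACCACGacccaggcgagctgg
Hspa5 and Hsp90b1 were higher on the female array, by 0.060 and 0.066, and Dnajc3 was lower, with a difference of -0.17. A match of letters is a description of the promoter and shows no binding.

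Several counted probes were available for 13 members. The probes of 1 gene spanned a median of 2.37 in level but 0.15 in the difference, and in no gene did the differences lie 0.5 or more apart. In 8 of the 13 genes the probes fell on both sides of 0. Dnajc19, which helps import proteins into mitochondria, was such a case in level: its probes stood 42.2-fold apart on the female array, at 1.69 and -3.71, and differed between the arrays by 0.0012 and 0.26.

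**Figure D4:**
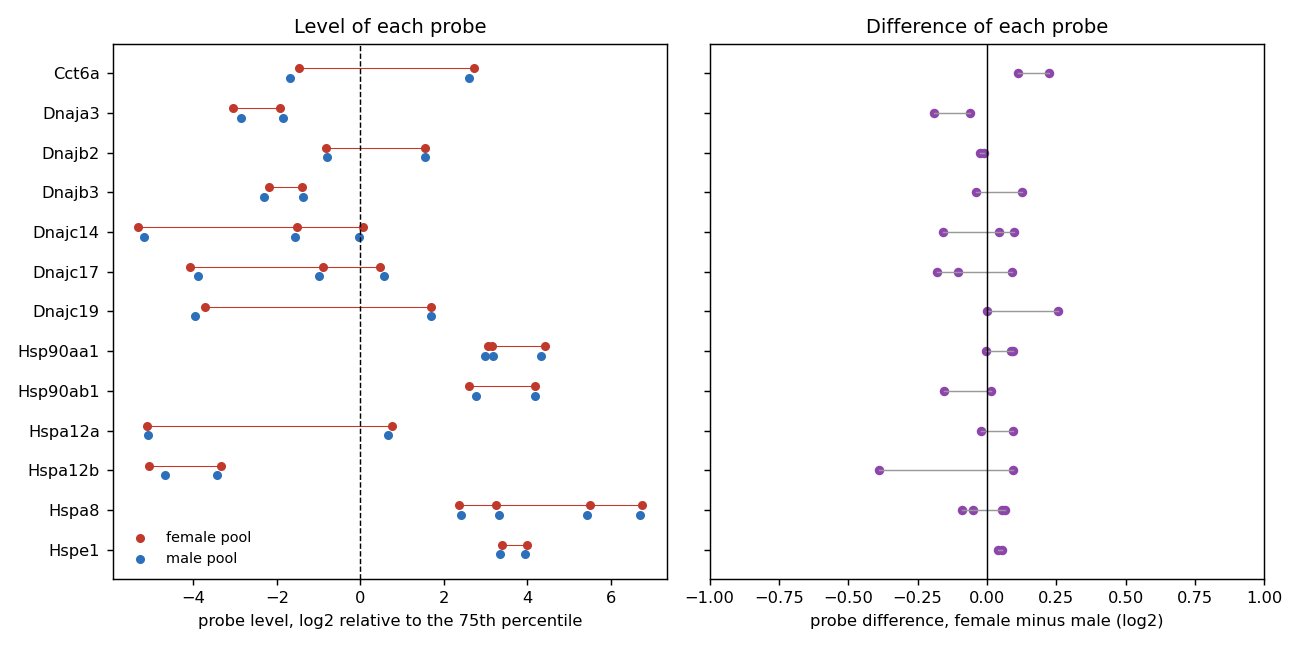
Counted probes of the 13 members with several, with the level of each probe on the female array (red, upper) and the male array (blue, lower) at left in log2 relative to the 75th percentile, and the female minus male difference of each probe (log2) at right. Levels spread up to 58.2-fold within Hspa12a, while the differences of 1 gene lie within 0.48 of each other.

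Not every member could be read. Dnajb7, Dnajc5b, Dnajc5g, Hspd1-ps14 and Hspd1-ps20 stayed near background on both arrays. The measured copies with pseudogene names or like names were Cct6a-ps3, Cct8l1, Hspd1-ps3 and Hspd1-ps6, with differences of 0.076, 0.073, 0.18 and -0.22. Whether their probes also bind the transcripts of the parent genes was not tested, so these 4 are uncertain. Without them, 47 of 80 members were higher on the female array.

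Genes that work with the members but do not carry their names lay somewhat closer. Their median size of difference was 0.067, against 0.095 for the members. They were also brighter, with a median level of 0.92 on the female array, against -0.61 for the members. Of 66 listed co-chaperones, heat shock factors, ER folding and unfolded protein response genes, 62 were measured. Of these, 36 (58.1%) were higher on the female array, against 45.7% of all genes, with a median of 0.013 and none 2-fold apart. Past 2 spot SDs, 5 (8.07%) were higher on the female array, against 7.41% of all genes. Another 5 (8.07%) were lower, against 12.4% of all genes. Stip1 (HOP), which links HSP70 to HSP90, was higher by 0.23, with levels of 1.39 on the female and 1.17 on the male array. Gak, the auxilin-like J-protein kinase, was higher by 0.23, and the lens crystallin gene Cryaa, at about -5 on both arrays, by 0.17. Canx (calnexin), an ER lectin chaperone, was lower, with a difference of -0.30, with -2.14 on the female and -1.85 on the male array. Lonp1, the mitochondrial protease, was lower, with a difference of -0.18, and so was Unc45a, a myosin co-chaperone, at -0.17. Hsf1, whose protein drives the heat shock genes, differed by 0.020.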

How the data were processed

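RNA of 2 pools (female, 5 WKY rats; male, 5 WKY rats) was measured on 1 Agilent single-colour array each. The deposited intensity values are the processed signal, which is background-subtracted and detrended within an array per the file headers. The headers name Agilent Feature Extraction 10.7.3.1 and the rn4 build, while the submitters' processing notes give version 9.1. A deposited value table held the same signals on 37504 spots times 1 factor per array, with medians of 27.3 for the female and 28.0 for the male column; it is linear and not centred.

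From the intensities deposited by the authors, log2 of the processed signal was set relative to each array's 75th percentile, outlier-flagged spots were left out, spots of a probe were averaged, and probes well above background on both arrays were counted. For a gene with several counted probes, the level and the difference are each the median over those probes. Symbols came from RefSeq's GRCr8 table through accessions for 18750 probes and another accession for 1035, from the array file for 2879, and 7703 had none. Spot SDs came from probes with at least 2 usable spots, in 4 classes of mean level. Each sex has 1 array, so no test was made, and precision is limited by that number.

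The text names each family's brightest, dimmest and 3 farthest-apart members, members 2-fold apart, 8 heat shock inducible and 7 ER stress genes, and the 6 farthest apart of 66 related genes; others were named after their values were seen. The members and lists were chosen with earlier results of these data known. The alternatives were other scalings (median, quantile, spike-in, loess of span 0.3), normexp (offset 50), the deposited table, other filters, 4 of 20 row bands left out, the brightest probe and a 1.5-fold threshold. The steps were tested on simulated data. Python 3.11.15, numpy 2.4.6, pandas 2.3.3, statsmodels 0.14.6, matplotlib 3.10.9, R 4.3.3 and limma 3.58.1 were used.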

Additional observations from a re-analysis of the deposited data

How the results depend on the processing

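No paired analysis was possible because each sex has 1 array. With spike-in scaling, all 84 members were higher on the female array, the median difference was 0.71 and 5 members were 2-fold or more apart. Of the 41 members named by the family and list rules above, all 15 that were lower on the female array turned. Among them, 6 had been lower by over 2 spot SDs: Cct5 turned to 0.53, Dnajb6 to 0.48, Dnajc22 to 0.31, Dnajc3 to 0.50, Hspb1 to 0.44 and Pdia4 to 0.45. Dnajc7 and Hspd1-ps6, lower by over 2 spot SDs as well, lie outside the 41 and also turned. This follows from the shift of 0.67 that this scaling adds to every gene. Without the background filter 2 members were 2-fold or more apart, Dnajc5g and Hspd1-ps20, and Hspa1b was -0.059, because the filter's unmeasured probes were then counted. At a threshold of 1.5-fold there were 2 members, Hspb3 and Dnajc24, against 2.47% of all genes. Median, quantile, loess and value-table scaling reversed no named gene that lay past 2 spot SDs. Hspa8 turned to -0.049 without 4 bands of array rows. Normexp, with its offset of 50, lowered the dim Hspb3 to 0.29, Hspa1l to 0.18, Hspb7 to 0.033 and Dnajb8 to 0.10. Adding 50 to signals this dim shrinks a log2 difference, and its share in these changes was not tested. Hsp90ab1 was 0.014 with its brightest probe and -0.16 without those bands, where 1 of its 2 probes remained. Leaving Hspa1l out of the heat shock inducible list, chosen after seeing the data, gave a median of 0.12. Dim signal limits Hspb3, Hspb7, Hspa1l, Cct6b and Dnajb8.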
